A study of Arabidopsis thaliana with 9 samples.

Results

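The cell cycle genes described here are 10 Arabidopsis thaliana genes with known roles from the start of DNA replication to the exit from mitosis: CDC20.1, AUR1, CYCB1;1, CYCB1;2, CYCB1;4, CDKB1;1, CDKB2;1, CYCD3;1, MCM5 and PCNA1. They were taken as a fixed set of gene identifiers, with no threshold on measured values. The set was chosen with earlier results of these data known, so its comparison with all genes is a description. The members are 10 of the 24140 genes listed in at least 1 library. RNA was sequenced from whole roots of seedlings kept on 1/2 MS medium to an age of 9 days, in 3 libraries each of erf13-3, 35S:ERF13:MYC and WT. In 35S:ERF13:MYC, the viral 35S promoter, active in most plant tissues, drives ERF13 with a MYC tag, and the genotype label calls it an over expression line of ERF13. The group titled erf13-3 carries conflicting labels: its genotype label calls it an ERF13 SRDX line, SRDX being a repression motif that makes a repressor of the factor to which it is joined, and the series text spells the name erf3-3. WT is given as wild type with no further allele. The headers of the authors' comparisons with WT name WT as COL and the group titled erf13-3 as E13SRDX. The number of independent lines or clones per genotype is not given in the sources used here, nor whether each library is its own pool of plants, so p-values measure the spread between libraries, which may be technical.

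ERF13 (AT2G44840), a transcription factor of the ERF family, was read first as a check of the labels. It stood at 2594.94, 2711.29 and 3043.15 FPKM in erf13-3, at 904.96, 789.36 and 772.94 FPKM in 35S:ERF13:MYC, and at 1.03, 0.96 and 1.25 FPKM in WT. FPKM is the authors' value per gene, fragments scaled to the length of the transcript and the size of the library. The transcript was thus abundant in both lines, the title erf13-3 does not mark a line without ERF13 RNA, and reads from a transgene and from the gene itself cannot be told apart. Library totals ran from 12147128 to 12324144 expected counts. Of the groups' libraries, erf13-3 replicate 3, 35S:ERF13:MYC replicate 1 and WT replicate 3 stood apart on the third principal component, which held 7.05% of the variance, and counts of calls are also given without these 3 libraries.

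Cell division in the root takes place mainly in the meristem at the tip, where cells pass through DNA synthesis (S phase) and mitosis before they elongate. D-type cyclins start the cycle by leading to phosphorylation of the retinoblastoma-related protein, which releases E2F factors that switch on genes of DNA synthesis. Later, B-type cyclins and the plant-specific B-type cyclin-dependent kinases drive mitosis, Aurora kinases act on the spindle and on chromosomes, and the anaphase-promoting complex with its activator CDC20 ends mitosis by marking cyclins for destruction. Genes of the mitotic phase share a promoter element, the mitosis-specific activator (MSA) element with the core AACGG, which MYB3R factors bind, while genes of S phase carry E2F sites.

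Promoters are shown for 4 members picked by their matches: the 3 mitotic members with the MSA core, and the replication gene with an E2F site. Each is the 250 bases before the gene start in RefSeq (TAIR10.1), read 5′ to 3′ on the gene's strand. Capitals mark the MSA core (AACGG, or CCGTT where it lies on the other strand) in the first 3 sequences and an E2F site (TTTCCCGC) in MCM5.
CYCB1;1 (chr4:17624309-17624558, minus strand): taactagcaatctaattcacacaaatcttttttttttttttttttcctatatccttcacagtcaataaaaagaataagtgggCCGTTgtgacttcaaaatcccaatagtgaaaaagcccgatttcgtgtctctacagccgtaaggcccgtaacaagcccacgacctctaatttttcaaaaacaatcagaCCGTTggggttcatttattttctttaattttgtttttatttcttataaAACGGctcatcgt
CYCB1;2 (chr5:1861704-1861953, minus strand): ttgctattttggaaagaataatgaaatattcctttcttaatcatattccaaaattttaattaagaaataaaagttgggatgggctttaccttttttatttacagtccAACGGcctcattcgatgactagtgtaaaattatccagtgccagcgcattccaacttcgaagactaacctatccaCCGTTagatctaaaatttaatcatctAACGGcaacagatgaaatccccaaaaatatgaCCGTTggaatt
AUR1 (chr4:15842193-15842442, plus strand): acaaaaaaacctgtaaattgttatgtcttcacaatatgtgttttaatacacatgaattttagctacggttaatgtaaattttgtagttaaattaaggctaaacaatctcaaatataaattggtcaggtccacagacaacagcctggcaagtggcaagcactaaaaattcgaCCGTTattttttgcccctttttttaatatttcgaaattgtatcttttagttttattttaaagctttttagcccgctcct
MCM5 (chr2:3527501-3527750, minus strand): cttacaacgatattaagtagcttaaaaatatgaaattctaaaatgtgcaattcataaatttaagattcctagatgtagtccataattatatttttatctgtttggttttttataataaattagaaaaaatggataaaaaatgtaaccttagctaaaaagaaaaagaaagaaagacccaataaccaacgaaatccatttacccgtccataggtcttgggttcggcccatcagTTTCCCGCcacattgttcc

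Counted to the first base of a match as printed, the MSA core began 168, 61 and 13 bases before the start of CYCB1;1. In CYCB1;2 it began 143, 69, 43 and 11 bases before the start, in AUR1 79 bases before it, and in CYCD3;1, whose sequence is not printed, 145 bases before it. That made 4 members with a match on either strand, against 20.6% of the 27443 promoters of the same length in the genome. The mitotic members CDC20.1, CYCB1;4, CDKB1;1 and CDKB2;1 had no MSA core in these 250 bases. The E2F sites searched, TTTCCCGC, TTTCGCGC, TTTGCCGC and TTTGGCGC, were found in 1 member, MCM5, 19 bases before its start, against 1.41% of all promoters. The other replication gene, PCNA1, had none of them. The GCC box core GCCGCC, which ERF factors bind, matched none of the 10 windows and 1.87% of all promoters. No searched motif overlapped another in these windows. With the 50 bases after the start added, the MSA core was found in 5 members, CYCB1;4 being the one gained, against 24.7% of promoters. A match is a description of letters, and no match says only that the letters are not in this window.

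All 10 genes were listed in all 9 libraries and passed the filter on low counts, with expected counts (the authors' estimated counts of reads per gene) between 47 and 529 per library. In WT, CDKB2;1 was the highest at 24.17 to 28.74 FPKM, apart from all the others, and CYCB1;1 the lowest at 2.34 to 3.43 FPKM. Between them, CYCD3;1 and PCNA1 overlapped each other, MCM5, CDKB1;1, CYCB1;2, CDC20.1 and AUR1 formed a run of overlapping neighbours with means of 9.90 to 7.74 FPKM, and CYCB1;4 was next by mean. The CYCB1;4 libraries, at 5.55 to 7.04 FPKM in WT, lay below those of AUR1 but overlapped those of CYCB1;2 and CDC20.1. CDKB2;1 was first and CYCB1;1 last in erf13-3 and in 35S:ERF13:MYC too. By mean FPKM, CDC20.1 took rank 4 of 10 in erf13-3, rank 5 in 35S:ERF13:MYC and rank 7 in WT. MCM5 took rank 7 in erf13-3 and rank 4 in both other groups, and CDKB1;1 rank 8 in erf13-3, rank 6 in 35S:ERF13:MYC and rank 5 in WT. These lower ranks are not falls in level: the means of MCM5 and CDKB1;1 were 11.1 and 10.9 FPKM in erf13-3, and 9.90 and 8.73 FPKM in WT. The libraries of MCM5 and CDKB1;1 overlapped each other in erf13-3.

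**Figure D1:**
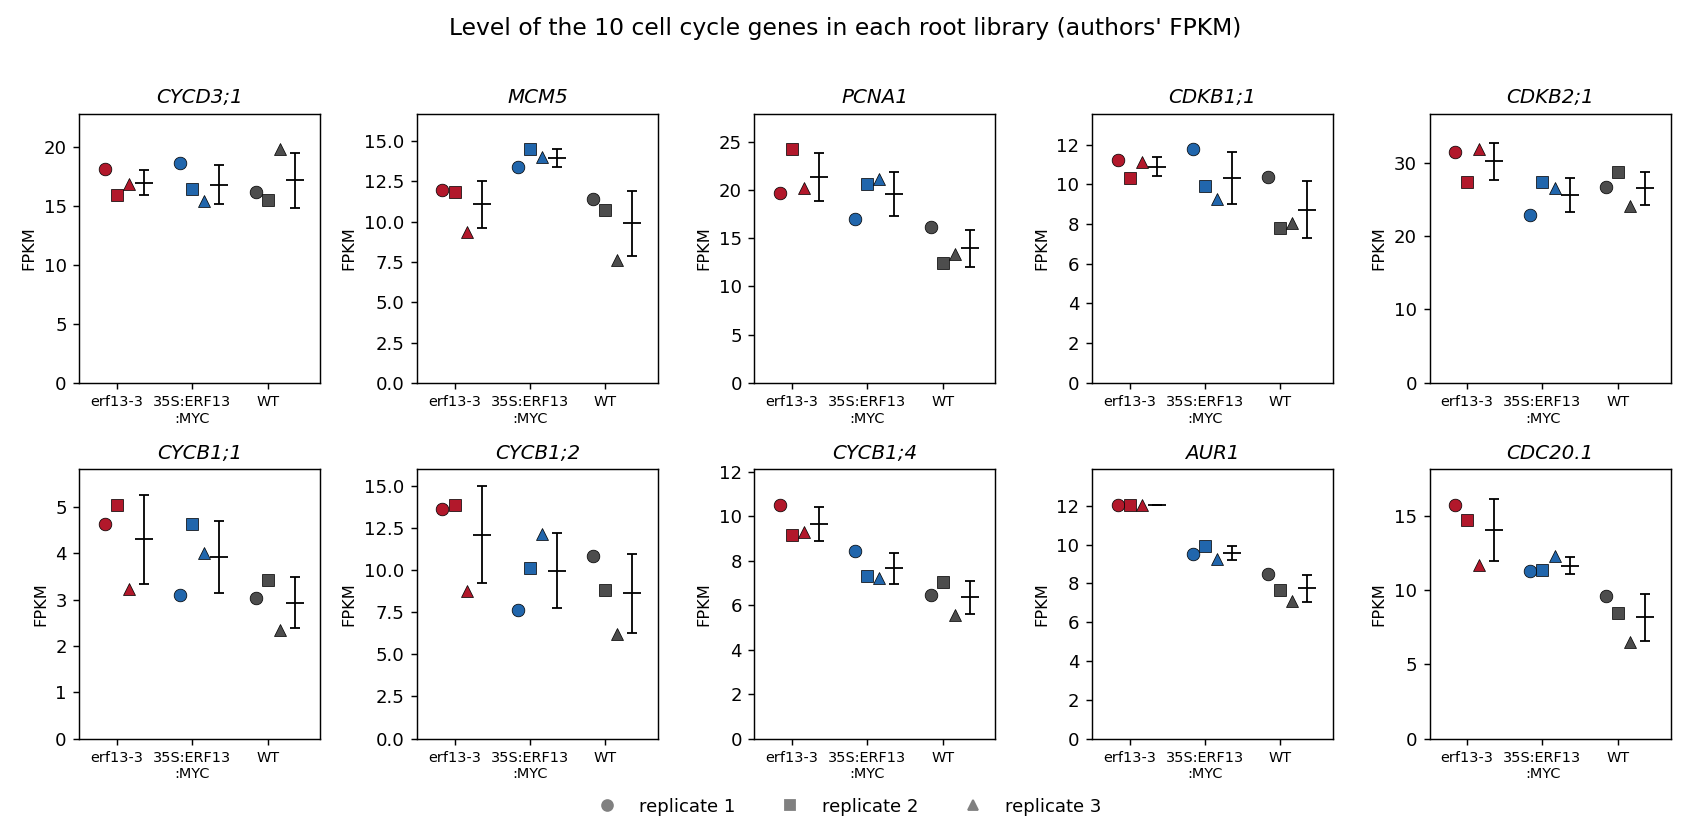
FPKM of each of the 10 cell cycle genes (y axis, from 0, scales differ) in erf13-3, 35S:ERF13:MYC and WT (x axis); points are libraries, the bar beside them is the mean ± SD of 3. AUR1 and CYCB1;4 of erf13-3 lie above all other libraries, and MCM5 of 35S:ERF13:MYC, at 13.39 to 14.51 FPKM, lies above both other groups.

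In erf13-3, 4 of the 10 genes rose against WT and none fell: CDC20.1, AUR1, CYCB1;4 and PCNA1, by 1.38-fold to 1.57-fold. Across all 19714 genes tested, 13.6% were called higher and 13.7% lower in that comparison. In 35S:ERF13:MYC, 3 rose against WT and none fell: CDC20.1, MCM5 and PCNA1, by 1.3-fold to 1.32-fold, beside 13.8% of all genes called higher and 17.7% lower. Between erf13-3 and 35S:ERF13:MYC, AUR1 and CYCB1;4 were higher in erf13-3 and MCM5 lower, beside 21.1% of all genes called higher and 17.6% lower. Calls were made at 0.05 on p-values adjusted by Benjamini-Hochberg over all genes in edgeR's quasi-likelihood test, in which all 9 libraries share 1 estimate of the spread, and every adjusted p of a gene below is from this test unless another tool is named. Both lines are compared with the same 3 WT libraries, so their changes against WT are not independent.

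The median log2 fold change of the 10 members was 0.38 in erf13-3 against WT, 0.18 in 35S:ERF13:MYC against WT, and 0.16 in erf13-3 against 35S:ERF13:MYC. The medians of all genes tested were 0.02, 0.02 and -0.02 in the same comparisons. The direction was positive for 9, 8 and 8 of the 10 members, against 51.9%, 52.5% and 48.1% of all genes. In FPKM, the 3 libraries of erf13-3 lay above those of WT for 4 members (the 4 called) and below them for none, beside 32.4% of all genes above and 12.1% below. The 3 libraries of 35S:ERF13:MYC lay above those of WT for 5 members and below them for none, beside 32.8% of all genes above and 18% below. The 5 were the 3 called, and AUR1 and CYCB1;4, which did not pass the test. The erf13-3 libraries lay above those of 35S:ERF13:MYC for 2 members (AUR1 and CYCB1;4), as for 30% of all genes, and below them for MCM5, as for 23% of all genes. The shares of members whose libraries do not overlap are thus read beside large shares of all genes. FPKM carry no TMM factor, which was 0.895 in WT replicate 3 and up to 1.06 elsewhere, so that WT replicate 3 is lower in FPKM than on the tested scale. Without the 3 libraries that stand apart (a choice made after seeing the data), 5 members were called higher in erf13-3 against WT (CYCB1;2 being the one gained) and 3 in 35S:ERF13:MYC against WT. Between the lines, 3 were then called higher in erf13-3 (CDC20.1 being the one gained) and 1 lower. Calls over all genes grew as well. Of 19751 genes then tested, 3134 were higher in erf13-3 and 2821 in 35S:ERF13:MYC against WT. With all 9 libraries these were 2689 and 2713 of 19714. Between the lines, 4433 were then higher and 3816 lower, against 4156 and 3470. In whole roots, more dividing cells and more RNA per dividing cell cannot be told apart.

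**Figure D2:**
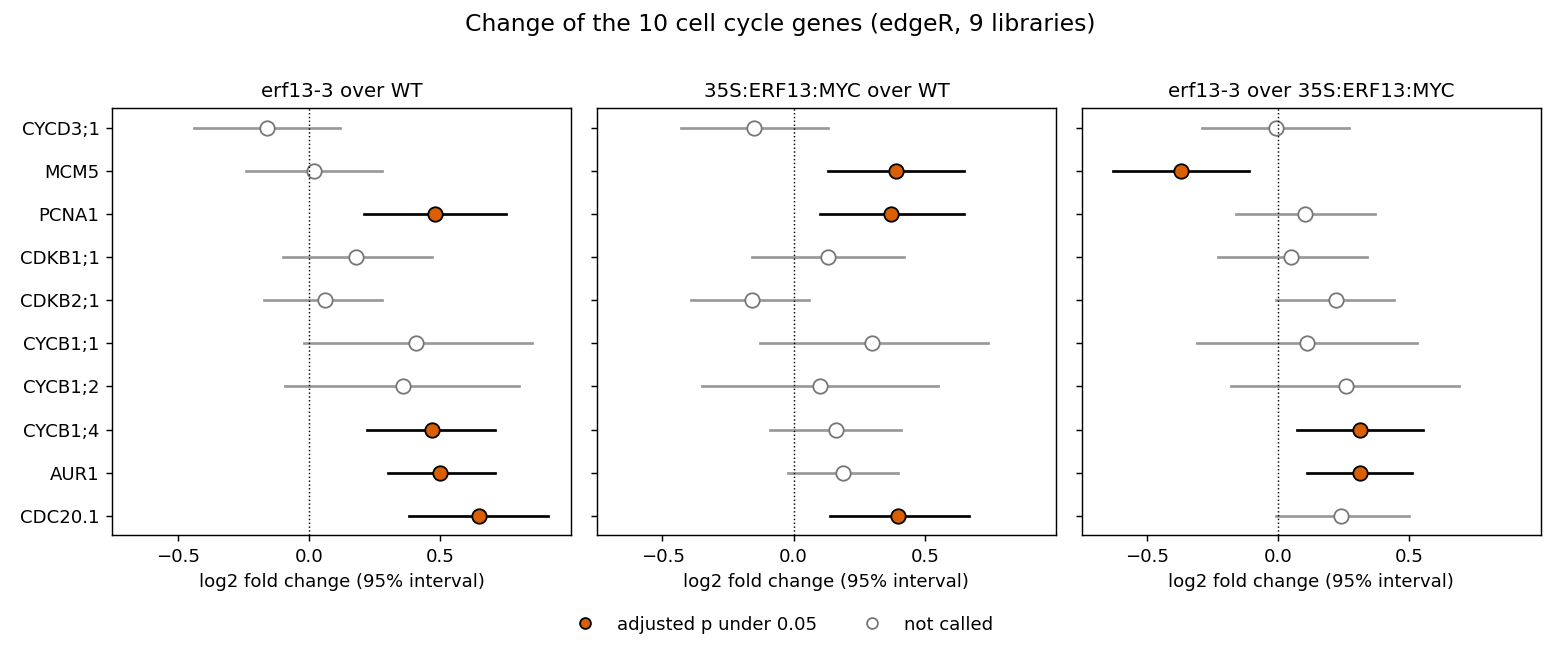
Log2 fold change of each member (x axis) with its 95% interval in erf13-3 over WT, 35S:ERF13:MYC over WT, and erf13-3 over 35S:ERF13:MYC; filled points are called. CDC20.1 and PCNA1 are called in both lines against WT, AUR1 and CYCB1;4 in erf13-3 and MCM5 in 35S:ERF13:MYC; the intervals of CYCB1;1 and CYCB1;2 are the widest.

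CYCD3;1 (AT4G34160, chr4:16357421-16359565) encodes a D-type cyclin that promotes entry into the cycle and responds to cytokinin. It had 18.10, 15.96 and 16.86 FPKM in erf13-3, 18.61, 16.40 and 15.42 FPKM in 35S:ERF13:MYC, and 16.20, 15.47 and 19.83 FPKM in WT. The groups overlapped throughout, and the highest library was WT replicate 3. Its log2 fold change was -0.16 in erf13-3 (SE 0.13, adjusted p = 0.40) and -0.15 in 35S:ERF13:MYC (SE 0.13, adjusted p = 0.40), each against WT. The 95% intervals reached from -0.44 to 0.12 and from -0.43 to 0.13, and both include 0. The gene overlaps its neighbour AT4G34150 by 40 bases on the same strand, and reads in that stretch may be counted for either.

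Both other D3 cyclins rose in erf13-3. CYCD3;3 (AT3G50070) had 16, 15.52 and 13.67 FPKM in erf13-3, 10.09, 10.60 and 10.78 FPKM in 35S:ERF13:MYC, and 9.20, 8.81 and 9.40 FPKM in WT, with all erf13-3 libraries above all others. It rose in erf13-3 against WT by 0.58 on the log2 scale (SE 0.09, adjusted p = 0.00067) and against 35S:ERF13:MYC by 0.49 (SE 0.09, adjusted p = 0.0011). CYCD3;2 (AT5G67260) averaged 21.1 ± 1.48 FPKM in erf13-3, 16.4 ± 0.705 FPKM in 35S:ERF13:MYC and 13 ± 1.78 FPKM in WT (SD, n = 3 each). It rose in erf13-3 against WT by 0.56 (SE 0.10, adjusted p = 0.00097) and against 35S:ERF13:MYC by 0.35 (SE 0.09, adjusted p = 0.012). Neither passed the test in 35S:ERF13:MYC against WT, with adjusted p-values of 0.52 for CYCD3;3 and 0.11 for CYCD3;2. Differences between the D3 cyclins themselves were not tested.

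MCM5 (AT2G07690, chr2:3522984-3527500) encodes a subunit of the MCM2-7 complex, the helicase that unwinds DNA at replication forks. It had 11.97, 11.84 and 9.38 FPKM in erf13-3, 13.39, 14.51 and 14.01 FPKM in 35S:ERF13:MYC, and 11.39, 10.69 and 7.61 FPKM in WT. All 35S:ERF13:MYC libraries lay above all others, erf13-3 and WT overlapped, and the lowest library of each of these was replicate 3. MCM5 rose in 35S:ERF13:MYC against WT by 0.39 on the log2 scale (SE 0.12, adjusted p = 0.028). In erf13-3 against WT the log2 fold change was 0.02 (95% interval -0.24 to 0.28, adjusted p = 0.92). It was lower in erf13-3 than in 35S:ERF13:MYC, at -0.37 on the log2 scale (SE 0.12, adjusted p = 0.027). The call in 35S:ERF13:MYC against WT was lost without WT replicate 3 or without any single 35S:ERF13:MYC library (adjusted p up to 0.10), and the call between the lines was lost without any single 35S:ERF13:MYC library or erf13-3 replicate 3 (adjusted p up to 0.10). The call between the lines was also lost without normalization factors and in limma on FPKM.

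Of the other 5 MCM genes tested, MCM3 and MCM4 rose in 35S:ERF13:MYC and none passed the test in erf13-3, each against WT. MCM3 averaged 6.90 ± 1.55 FPKM in erf13-3, 9.47 ± 1.35 FPKM in 35S:ERF13:MYC and 5.41 ± 2.09 FPKM in WT (SD, n = 3 each). Its log2 fold change in 35S:ERF13:MYC was 0.70 (SE 0.22, adjusted p = 0.030), and that of MCM4 was 0.39 (SE 0.13, adjusted p = 0.039). Both were no longer called without WT replicate 2 or 3 or 35S:ERF13:MYC replicate 2 or 3 (adjusted p up to 0.10 for MCM3 and 0.15 for MCM4), and that of MCM4 also without erf13-3 replicate 1 and with only the 2 groups compared in the fit (adjusted p = 0.052). MCM6 had a log2 fold change of 0.75 with a larger error (SE 0.27, adjusted p = 0.054), MCM2 of 0.46 (adjusted p = 0.13) and MCM7 of 0.22 (adjusted p = 0.34). None of these 5 differed between erf13-3 and 35S:ERF13:MYC past the threshold, with log2 fold changes of -0.59 for MCM6 to -0.03 for MCM7.

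PCNA1 (AT1G07370, chr1:2263037-2264553) encodes the proliferating cell nuclear antigen, the sliding clamp that holds DNA polymerase on its template. It had 19.72, 24.27 and 20.18 FPKM in erf13-3, 16.95, 20.58 and 21.19 FPKM in 35S:ERF13:MYC, and 16.14, 12.45 and 13.36 FPKM in WT. Every library of both lines lay above every WT library, by a small margin for 35S:ERF13:MYC replicate 1, and the lines overlapped. PCNA1 rose by 0.48 in erf13-3 (SE 0.12, adjusted p = 0.013) and by 0.37 in 35S:ERF13:MYC (SE 0.12, adjusted p = 0.039) against WT, on the log2 scale. The lines differed by 0.10, with a 95% interval from -0.16 to 0.37 (adjusted p = 0.53). The erf13-3 call was lost without WT replicate 2 (adjusted p = 0.063) or erf13-3 replicate 2. The 35S:ERF13:MYC call was lost without WT replicate 2 (adjusted p = 0.14), WT replicate 3, 35S:ERF13:MYC replicate 2 or replicate 3, and in DESeq2 (adjusted p = 0.055). The second clamp gene, PCNA2, averaged 16.7 ± 2.06 FPKM in erf13-3, 16.2 ± 1.76 FPKM in 35S:ERF13:MYC and 12.5 ± 3.74 FPKM in WT (SD, n = 3 each), and passed the test in neither line (adjusted p = 0.23 in each).

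Neither B-type cyclin-dependent kinase passed the test in any of the 3 comparisons. CDKB1;1 (AT3G54180, chr3:20059671-20061488), a kinase active from S phase into mitosis, had 11.22, 10.33 and 11.12 FPKM in erf13-3, 11.79, 9.94 and 9.25 FPKM in 35S:ERF13:MYC, and 10.38, 7.78 and 8.04 FPKM in WT. WT replicate 1 lay within both lines, while WT replicates 2 and 3 lay below them. Its log2 fold change was 0.18 in erf13-3 (95% interval -0.10 to 0.47, adjusted p = 0.34) and 0.13 in 35S:ERF13:MYC (-0.16 to 0.42, adjusted p = 0.47). CDKB2;1 (AT1G76540, chr1:28720328-28722550), a kinase of G2 phase and mitosis, had 31.45, 27.32 and 31.90 FPKM in erf13-3, 22.95, 27.36 and 26.57 FPKM in 35S:ERF13:MYC, and 26.66, 28.74 and 24.17 FPKM in WT. The 3 groups overlapped. The log2 fold change was 0.06 in erf13-3 (95% interval -0.17 to 0.28, adjusted p = 0.74) and -0.16 in 35S:ERF13:MYC (-0.39 to 0.06, adjusted p = 0.25), and 0.22 between the lines (-0.01 to 0.44, adjusted p = 0.12). The partner genes CDKB1;2 and CDKB2;2 did not pass the test in any comparison either; CDKB1;2 averaged 7.67 ± 0.200 FPKM in erf13-3, 6.89 ± 0.370 FPKM in 35S:ERF13:MYC and 5.57 ± 0.573 FPKM in WT (SD, n = 3 each), with a log2 fold change of 0.31 in erf13-3 against WT (adjusted p = 0.075). CDKB2;2 averaged 8.69 ± 1.37 FPKM in erf13-3, 8.24 ± 1.32 FPKM in 35S:ERF13:MYC and 7.58 ± 0.459 FPKM in WT. CDKB1;1 overlaps AT3G54190 by 71 bases and CDKB2;1 overlaps AT1G76530 by 44 bases, each on the opposite strand, and whether the counting used strand is not given in the sources used here.

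The 3 B1 cyclins, which activate cyclin-dependent kinases at the entry into mitosis, differed in how closely their libraries agreed. CYCB1;4 (AT2G26760, chr2:11401118-11403433) had 10.53, 9.14 and 9.29 FPKM in erf13-3, 8.45, 7.32 and 7.21 FPKM in 35S:ERF13:MYC, and 6.46, 7.04 and 5.55 FPKM in WT. The groups did not overlap, with erf13-3 highest and WT lowest. CYCB1;4 rose in erf13-3 by 0.47 on the log2 scale against WT (SE 0.11, adjusted p = 0.0086), and kept this call without any single library. It was higher in erf13-3 than in 35S:ERF13:MYC by 0.31 (SE 0.11, adjusted p = 0.045), a call that was lost without WT replicate 1, 35S:ERF13:MYC replicate 2 or 3, or erf13-3 replicate 1 or 3 (adjusted p up to 0.16), with no filter on low counts, in DESeq2 and in limma on FPKM. The log2 fold change of 35S:ERF13:MYC against WT was 0.16 (95% interval -0.09 to 0.41, adjusted p = 0.30).

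CYCB1;1 (AT4G37490, chr4:17621886-17624308), the cyclin whose promoter is widely used to mark cells about to divide, had 4.63, 5.05 and 3.22 FPKM in erf13-3, 3.09, 4.64 and 4 FPKM in 35S:ERF13:MYC, and 3.03, 3.43 and 2.34 FPKM in WT. The groups overlapped, and replicate 3 was the lowest in erf13-3 and in WT. The log2 fold change was 0.41 in erf13-3 (SE 0.20, adjusted p = 0.15) and 0.30 in 35S:ERF13:MYC (SE 0.20, adjusted p = 0.27) against WT. CYCB1;2 (AT5G06150, chr5:1859279-1861703) had 13.64, 13.88 and 8.76 FPKM in erf13-3, 7.65, 10.11 and 12.11 FPKM in 35S:ERF13:MYC, and 10.84, 8.80 and 6.18 FPKM in WT. It varied widely within each group, and its lowest library was erf13-3 replicate 3, 35S:ERF13:MYC replicate 1 and WT replicate 3 in the 3 groups, the libraries that stood apart across all genes. Its log2 fold change was 0.36 in erf13-3 (SE 0.20, adjusted p = 0.23) and 0.10 in 35S:ERF13:MYC (SE 0.21, adjusted p = 0.74) against WT. Its expected counts lay up to 0.49 from a whole number, and how reads shared by several genes were counted is not stated. The 95% intervals of CYCB1;1 and CYCB1;2 in erf13-3 against WT, -0.02 to 0.85 and -0.09 to 0.80, contain both 0 and the 0.47 of CYCB1;4. The remaining B1 cyclin, CYCB1;3, averaged 7.13 ± 0.842 FPKM in erf13-3, 6.50 ± 0.142 FPKM in 35S:ERF13:MYC and 5.97 ± 0.979 FPKM in WT (SD, n = 3 each) and passed no test.

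AUR1 (AT4G32830, chr4:15842443-15844865) encodes an Aurora kinase of the alpha class, which acts on the mitotic spindle and the cell plate and helps to set the plane of division in the root. It had 12.02, 12.06 and 12.03 FPKM in erf13-3, 9.50, 9.93 and 9.24 FPKM in 35S:ERF13:MYC, and 8.49, 7.63 and 7.11 FPKM in WT. The libraries within a group lay close together and the groups did not overlap, with erf13-3 highest and WT lowest. AUR1 rose in erf13-3 by 0.50 on the log2 scale against WT (SE 0.09, fold 1.42, adjusted p = 0.0019), a call kept without any single library. It was higher in erf13-3 than in 35S:ERF13:MYC by 0.31 (SE 0.09, adjusted p = 0.020), a call lost without 35S:ERF13:MYC replicate 1 or 3 or erf13-3 replicate 3 (adjusted p up to 0.079), and in DESeq2 (adjusted p = 0.059). In 35S:ERF13:MYC against WT the log2 fold change was 0.19 (95% interval -0.02 to 0.40, adjusted p = 0.15), and only the fits without normalization factors and of limma on FPKM called it. AUR1 shares 290 bases with AT4G32840 on the opposite strand.

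Both other Aurora kinase genes rose in erf13-3 as well. AUR2 (AT2G25880), of the same class, had 11.41, 11.25 and 10.19 FPKM in erf13-3, 6.20, 7.22 and 8.43 FPKM in 35S:ERF13:MYC, and 7.46, 7.77 and 6.37 FPKM in WT. The erf13-3 libraries lay above all others, and 35S:ERF13:MYC overlapped WT. AUR2 rose in erf13-3 by 0.50 against WT (SE 0.13, adjusted p = 0.011) and by 0.67 against 35S:ERF13:MYC (SE 0.13, adjusted p = 0.0012), on the log2 scale. AUR3 (AT2G45490), which phosphorylates histone H3 at mitosis, averaged 4.58 ± 0.557 FPKM in erf13-3, 3.08 ± 0.390 FPKM in 35S:ERF13:MYC and 2.58 ± 0.472 FPKM in WT (SD, n = 3 each). It rose in erf13-3 by 0.69 against WT (SE 0.18, adjusted p = 0.014) and by 0.55 against 35S:ERF13:MYC (SE 0.18, adjusted p = 0.028). The AUR3 call against WT was lost without erf13-3 replicate 2 (adjusted p = 0.057) and without the 3 libraries that stand apart (adjusted p = 0.069), and its call against 35S:ERF13:MYC without 35S:ERF13:MYC replicate 1 or 2 or erf13-3 replicate 2 or 3 (adjusted p up to 0.097), in DESeq2 (adjusted p = 0.079) and without the 3 libraries (adjusted p = 0.11). Neither passed the test in 35S:ERF13:MYC against WT (adjusted p = 0.34 for AUR2 and 0.60 for AUR3).

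CDC20.1 (AT4G33270, chr4:16044169-16046937) encodes an activator of the anaphase-promoting complex. It had 15.77, 14.70 and 11.72 FPKM in erf13-3, 11.28, 11.34 and 12.29 FPKM in 35S:ERF13:MYC, and 9.61, 8.45 and 6.49 FPKM in WT. Every library of both lines lay above every WT library, and erf13-3 replicate 3 lay within 35S:ERF13:MYC. CDC20.1 had the largest log2 fold change of the members in erf13-3 against WT. It rose by 0.65 on the log2 scale in erf13-3 (SE 0.12, fold 1.57, adjusted p = 0.0018) and by 0.40 in 35S:ERF13:MYC (SE 0.12, fold 1.32, adjusted p = 0.026). The lines differed by 0.24, with a 95% interval from -0.01 to 0.50 (adjusted p = 0.12). The erf13-3 call was kept without any single library, and the 35S:ERF13:MYC call was lost without WT replicate 2 or 3 or any single 35S:ERF13:MYC library (adjusted p up to 0.10).

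The near-identical neighbour CDC20.2 (AT4G33260) lies beside CDC20.1 on chromosome 4, and both genes carry counts that are not whole, by up to 0.42. CDC20.2 had 12.28, 9.59 and 7.75 FPKM in erf13-3, 9.22, 9.05 and 9.47 FPKM in 35S:ERF13:MYC, and 8.96, 6.11 and 5.21 FPKM in WT, and passed no test on its own (log2 fold change 0.41 in erf13-3, adjusted p = 0.10, and 0.33 in 35S:ERF13:MYC, adjusted p = 0.17, against WT). With the counts of both summed, a choice made after seeing the data, the log2 fold change was 0.56 in erf13-3 (adjusted p = 0.0077) and 0.37 in 35S:ERF13:MYC (adjusted p = 0.050 when rounded, still called) against WT. How the authors' counting divided reads between the copies is not stated, so the level of each copy is uncertain.

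The wider cell cycle was read from 10 lists by role, which hold 91 genes beside the members, 89 of them tested. In erf13-3 against WT, 12 of the 89 rose, 3 fell and 74 did not pass, with a median log2 fold change of 0.18. That share of rises is close to the 13.6% of all genes called higher. The 3 falls stand beside 13.7% of all genes called lower. For 35S:ERF13:MYC against WT, 17 rose, 1 fell and 71 did not pass, with a median of 0.22, where 13.8% of all genes were called higher and 17.7% lower. Between erf13-3 and 35S:ERF13:MYC, 6 were higher, 13 lower and 70 not called, with a median of -0.03, beside 21.1% of all genes higher and 17.6% lower. The rises in erf13-3 numbered 6 without WT replicate 2 or without erf13-3 replicate 2, and those in 35S:ERF13:MYC numbered 6 to 8 without WT replicate 2 or 3 or 35S:ERF13:MYC replicate 2 or 3. Without normalization factors they numbered 25 in erf13-3 and 27 in 35S:ERF13:MYC.

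By role, with the members included, the DNA replication list of 22 tested genes held 5 that rose in erf13-3 and 10 that rose in 35S:ERF13:MYC, with none that fell, where 13.6% and 13.8% of all genes were called higher. Of the 5 in erf13-3, ETG1 (log2 fold change 0.35, adjusted p = 0.050 when rounded) kept its call in 2 of 9 fits with a library left out and in 3 of 10 other settings, with adjusted p up to 0.17, and lost it with the replicate number as a block (adjusted p = 0.061). The list's median log2 fold change was 0.23 in erf13-3 and 0.45 in 35S:ERF13:MYC against WT. Between the lines, 1 gene of this list was higher in erf13-3 and 4 lower, the median being -0.19. Of all genes, 21.1% were called higher and 17.6% lower in that comparison. The E2F, RBR and MYB3R regulators held 1 of 10 that rose in erf13-3 and 4 of 10 in 35S:ERF13:MYC. The mitotic kinases and checkpoint genes held 3 of 8 in erf13-3, the 3 Aurora genes, and 1 of 8 in 35S:ERF13:MYC. Of the B-type cyclins, 1 of 9 rose in erf13-3 and none in 35S:ERF13:MYC, and none of the 7 cyclin-dependent kinases and CKS genes was called in either line. Of the A-type cyclins, 2 of 8 rose in erf13-3 and 1 of 8 in 35S:ERF13:MYC, and of the 4 cytokinesis genes none was called in either line. Of 10 anaphase-promoting complex genes, 1 rose in erf13-3 and 2 in 35S:ERF13:MYC, CDC20.1 among them in both. Of the D-type cyclins, 2 of 9 rose and 1 fell in erf13-3 and 1 rose in 35S:ERF13:MYC, and of the CDK inhibitors, 1 of 12 rose and 2 fell in erf13-3 and 1 rose and 1 fell in 35S:ERF13:MYC. These falls stand beside 13.7% of all genes called lower in erf13-3 and 17.7% in 35S:ERF13:MYC, each against WT. The difference between lists was not tested.

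**Figure D3:**
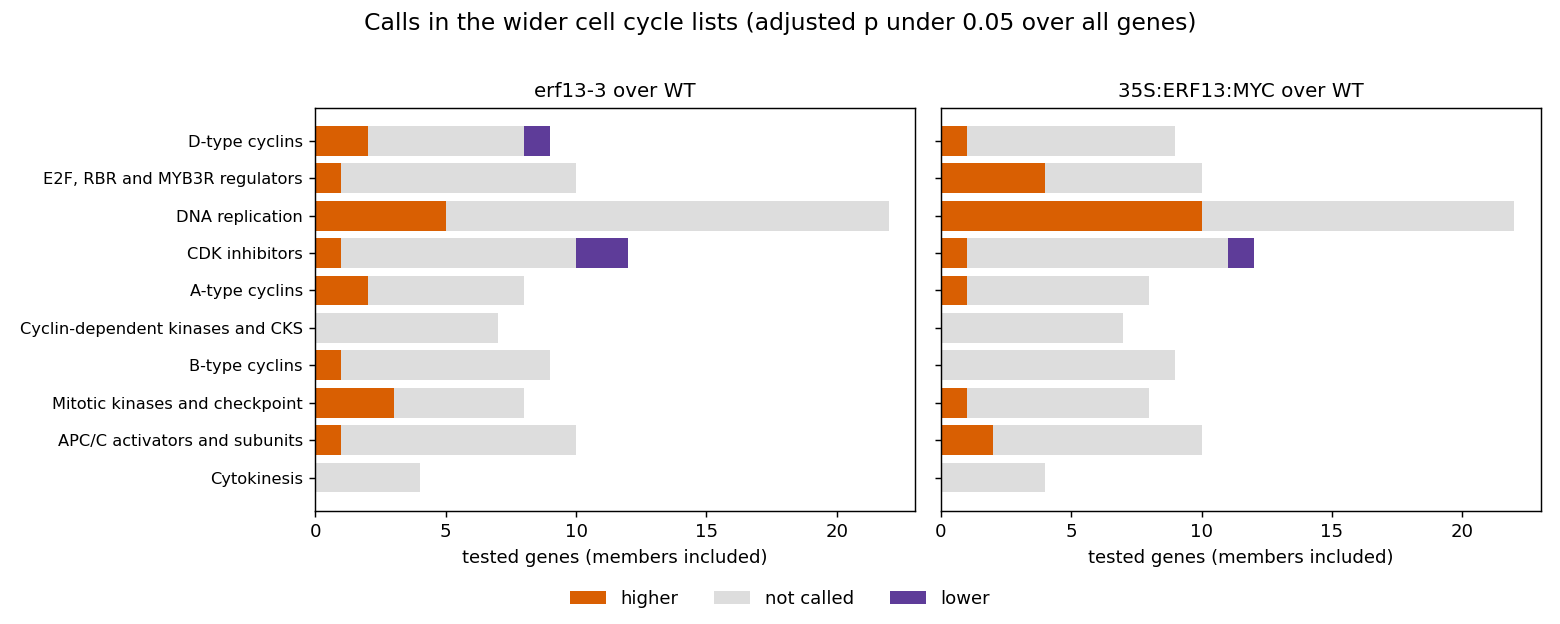
Number of tested genes (x axis) called higher, not called and called lower in each cell cycle list (y axis, members included), for erf13-3 over WT and 35S:ERF13:MYC over WT. The DNA replication list holds 10 genes called higher in 35S:ERF13:MYC and 5 in erf13-3; genes called lower are seen in the D-type cyclins of erf13-3 and in the CDK inhibitors of both lines.

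The wider-list genes with the smallest p in erf13-3 against WT were 3 D-type cyclins, a CDK inhibitor and a gene of nucleotide supply. CYCD1;1 (AT1G70210) fell by 0.64 on the log2 scale (SE 0.10, adjusted p = 0.00037), at 10.4 ± 0.566 FPKM in erf13-3, 18.3 ± 1.62 FPKM in 35S:ERF13:MYC and 14.8 ± 0.202 FPKM in WT (SD, n = 3 each). It thus moved against CYCD3;2 and CYCD3;3, given above. SIM (AT5G04470), a CDK inhibitor that promotes endoreduplication, fell by 0.48 (SE 0.09, adjusted p = 0.0014), at 98.4 ± 6.97 FPKM in erf13-3, 129 ± 3.71 FPKM in 35S:ERF13:MYC and 125 ± 1.46 FPKM in WT. TSO2 (AT3G27060), a small subunit of ribonucleotide reductase, which makes the building blocks of DNA, rose by 0.43 (SE 0.08, adjusted p = 0.0016), at 46.5 ± 2.5 FPKM in erf13-3, 35.7 ± 0.562 FPKM in 35S:ERF13:MYC and 31.3 ± 3.22 FPKM in WT.

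Against WT, 35S:ERF13:MYC had the smallest p in other genes. CYCD2;1 (AT2G22490) rose by 0.41 (SE 0.07, adjusted p = 0.0014), at 25.6 ± 1.59 FPKM in erf13-3, 33.2 ± 1.55 FPKM in 35S:ERF13:MYC and 23.1 ± 0.918 FPKM in WT (SD, n = 3 each). The CDK inhibitor gene KRP5 (AT3G24810) rose by 0.65 (SE 0.13, adjusted p = 0.0026), at 9.59 ± 0.668 FPKM in erf13-3, 14.2 ± 1.33 FPKM in 35S:ERF13:MYC and 8.38 ± 0.641 FPKM in WT. APC8, a subunit of the anaphase-promoting complex, rose by 0.50 (adjusted p = 0.0067), CYCA2;2, an A-type cyclin, by 0.52 (adjusted p = 0.0092), and ETG1, a replication factor that binds the MCM complex, by 0.49 (adjusted p = 0.0092). The CYCA2;2 call was lost without the 3 libraries that stand apart (adjusted p = 0.064). Between the lines, CYCD1;1 (-0.84, adjusted p = 2.2e-05), AT1G08180 of the CDK inhibitor list (-0.98, adjusted p = 0.00063) and CYCD2;1 (-0.40, adjusted p = 0.00086) were lower in erf13-3, and CYCD3;3 and AUR2 higher, as given above.

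The mean of the 7 mitotic members (CDC20.1, AUR1, the 3 B1 cyclins, CDKB1;1 and CDKB2;1) was taken in each library as log2 CPM with TMM factors, minus the WT mean. It was 0.44, 0.38 and 0.30 in erf13-3, 0.09, 0.21 and 0.18 in 35S:ERF13:MYC, and 0.10, 0.05 and -0.15 in WT. The erf13-3 libraries lay above all others, 35S:ERF13:MYC replicate 1 lay within WT, and WT replicate 3 was the lowest. For CYCD3;1, MCM5 and PCNA1 the mean was 0.12, 0.16 and 0.08 in erf13-3, 0.18, 0.26 and 0.20 in 35S:ERF13:MYC, and 0.06, -0.07 and 0.01 in WT. Here the 35S:ERF13:MYC libraries were the highest, and those of erf13-3 lay between them and WT. The margin was small, with 0.18 as the lowest 35S:ERF13:MYC value and 0.16 as the highest of erf13-3. Of these genes, only MCM5 was called between the lines, at -0.37 in erf13-3 against 35S:ERF13:MYC. PCNA1, at 0.10, and CYCD3;1, at -0.01, were not. Within groups, CDC20.1, CYCB1;1, CYCB1;2 and MCM5 were low in erf13-3 replicate 3, with log2 deviations of -0.15 to -0.36 from the mean of erf13-3, and in WT replicate 3, with deviations of -0.22 to -0.35 from the mean of WT. CYCD3;1 was high in WT replicate 3, with a deviation of 0.29.

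Markers of root zones and of green tissue were read beside the members, and the lists differed in which line they moved. Across all genes tested, 13.6% were called higher and 13.7% lower in erf13-3 against WT. In 35S:ERF13:MYC against WT these shares were 13.8% and 17.7%, and the counts of called markers below stand beside them. Of 8 tested markers of the root meristem and stem cell niche, 5 rose in erf13-3 against WT (PLT1, PLT2, PLT3, SCR and SHR) with a list median of 0.59. In 35S:ERF13:MYC, 1 rose (PLT3), close to the share of all genes, with a median of 0.37. WOX5, RGF2 and RGF3 were called in neither line against WT. The summed level of the meristem list was 84.6 to 88.3 FPKM in erf13-3, 62.2 to 65.4 FPKM in 35S:ERF13:MYC and 47.5 to 52.1 FPKM in WT, without overlap. Of all genes, 32.4% in erf13-3 and 32.8% in 35S:ERF13:MYC also lay above WT without overlap. SCR and SHR made up most of the sum, with means of 34.3 and 24.1 FPKM in erf13-3. Their means were 24.1 and 14.5 FPKM in 35S:ERF13:MYC, and 18.9 and 14.4 FPKM in WT. Of the defining markers, RGF1 was left out of the table of 35S:ERF13:MYC replicate 3 and taken as 0. Without normalization factors, and in both limma fits, 4 of the 8 were called higher in 35S:ERF13:MYC. Of 6 markers of differentiated root, 2 fell in erf13-3 (GPAT5 and PYK10, by 0.39 and 0.76 on the log2 scale) and 5 fell in 35S:ERF13:MYC. The list median was 0.09 in erf13-3, with 3 of 6 above 0, and -0.68 in 35S:ERF13:MYC, with none above 0. PYK10, a beta-glucosidase gene, made up most of the summed level, at 7594 to 8106 FPKM in erf13-3, 10643 to 12147 FPKM in 35S:ERF13:MYC and 10938 to 12941 FPKM in WT. The sum over all 6 was 8140 to 8850 FPKM in erf13-3, 10900 to 12400 FPKM in 35S:ERF13:MYC and 11400 to 13500 FPKM in WT. Of 4 markers of lateral root primordia, none was called in erf13-3 and LBD33 rose in 35S:ERF13:MYC, with summed levels of 12.7 to 14.5 FPKM in erf13-3, 14.8 to 18.4 FPKM in 35S:ERF13:MYC and 10.8 to 13.6 FPKM in WT. Of 9 markers of green tissue, all 9 rose in erf13-3 and 8 fell in 35S:ERF13:MYC, with summed levels of 739 to 851 FPKM in erf13-3, 114 to 194 FPKM in 35S:ERF13:MYC and 314 to 358 FPKM in WT. The part of tissue makeup in the changes of the cell cycle genes was not tested.

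**Figure D4:**
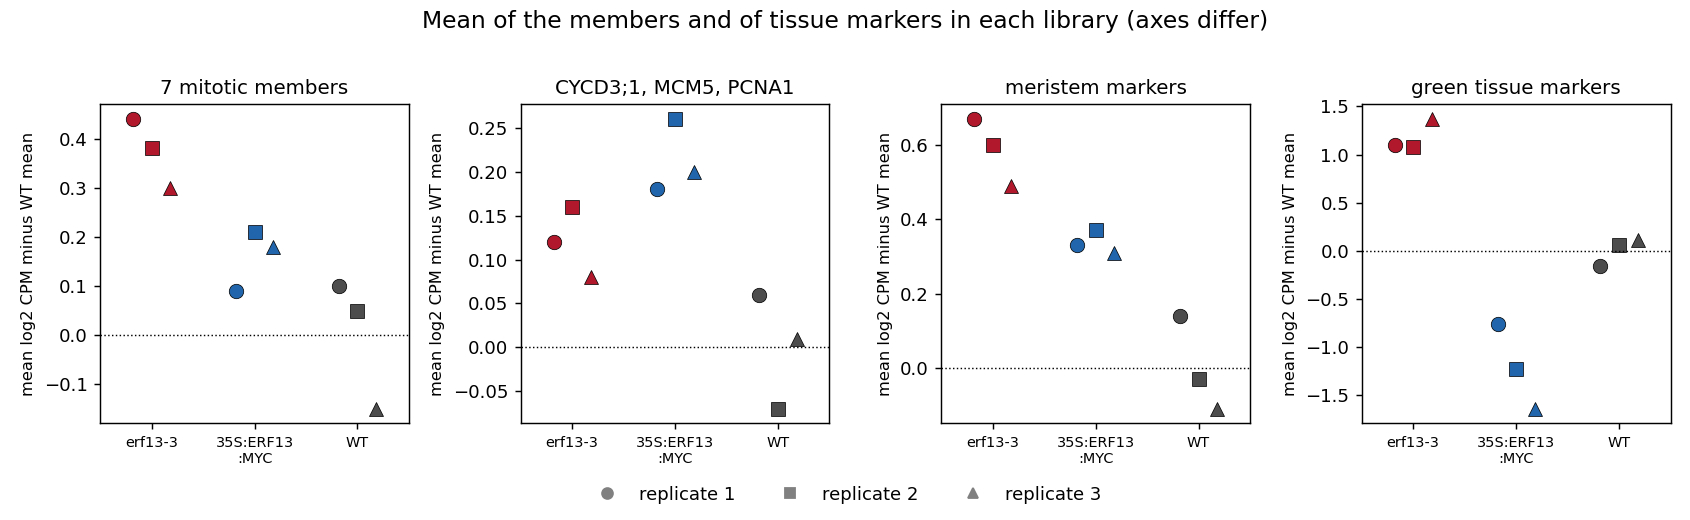
Mean log2 CPM minus the WT mean (y axis, scales differ) of the 7 mitotic members, of CYCD3;1, MCM5 and PCNA1, of the meristem markers and of the green tissue markers, in each library of erf13-3, 35S:ERF13:MYC and WT (x axis). The mitotic members and the meristem markers are highest in the 3 erf13-3 libraries. The mean of CYCD3;1, MCM5 and PCNA1 is highest in 35S:ERF13:MYC by a small margin, and of these genes only MCM5 was called between the lines. Green tissue markers are lowest in 35S:ERF13:MYC.

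The genes whose log2 CPM followed the mean of the standardised members most closely over the 9 libraries were AT2G42960 (Pearson r = 0.982), AT1G65370 (0.980), AT1G73620 (0.977), ATS (AT5G42630, 0.974) and KAN (AT5G16560, 0.971). They were taken from 18407 genes outside the lists with a mean of at least 1 FPKM, of which 175 had an r over 0.9. The 9 libraries share 3 genotypes, so these values describe a common order of the genotypes and carry no test. None of the 10 members appears in the authors' deposited table of either line against WT, whose smallest log2 ratio in size was 1, a size no member reached. Of the wider lists, 1 gene appears there, CYCA2;1, with a log2 ratio of 1.36 for erf13-3 in the authors' deposited table. Its level was low, at 1.11 to 1.97 FPKM in erf13-3 and 0.26 to 0.92 FPKM (6 to 16 expected counts) in WT. In edgeR its log2 fold change in erf13-3 against WT was 1.29 (SE 0.36, adjusted p = 0.020).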

How the data were processed

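RNA-seq libraries of whole roots (3 genotypes, 3 libraries each) were analysed from the authors' deposited tables. Per the file headers, each table gives an expected count (an estimated count per gene, not always whole) and an FPKM value that the authors computed. Of aligner, counter, build and strand, the sources used here name none. The authors also deposited a table per line against WT with a log2 ratio of mean FPKM. Genes that a table leaves out were set to 0. Between 88.7% and 89.9% of the deposited counts were whole within 0.005.

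Expected counts were rounded and tested in edgeR 4.0.16 (R 4.3.3): filterByExpr with a minimum count of 10 (19714 genes kept), TMM factors, and 1 quasi-likelihood fit of all 9 libraries with a mean per genotype (6 residual degrees of freedom, biological coefficient of variation 0.104). p-values were adjusted over all genes by Benjamini-Hochberg. The SE was derived from the F statistic, and intervals are 95%. The script was tested on simulated data. DESeq2 1.42.0, limma 3.58.1 on log2(FPKM + 0.1) and log2(FPKM + 1), other normalizations and left-out libraries were the alternatives. No libraries were duplicates. Same-numbered erf13-3 and WT libraries correlated at 0.18, 0.22 and 0.44 in their deviations from the group means. Those with different numbers ran from -0.37 (WT replicate 3 with erf13-3 replicate 2) to 0.27 (WT replicate 1 with erf13-3 replicate 2). The highest value, 0.44, was that of WT replicate 3 with erf13-3 replicate 3. Whether the libraries are paired by number was not tested. No label says what a number marks, and the main fit took no pairs. A fit with the replicate number as a block was an alternative.

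The members and all lists were chosen with earlier results of these data known. The named genes are all members, ERF13, their closest family members, the 5 called genes with the smallest p of the wider lists in each comparison, and the 5 genes most like the members. CYCA2;1 and the named tissue markers were named after their values were seen. Gene positions and promoters are those of RefSeq (TAIR10.1). Of the positions written in the descriptions of the authors' comparison tables, 69.9% (35S:ERF13:MYC) and 71.1% (erf13-3) had the same start and end as in RefSeq.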

Additional observations from a re-analysis of the deposited data

Results flagged for a closer look

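The changes of 3 members differed between the lines when erf13-3 was tested against 35S:ERF13:MYC directly, which is the difference of their changes against the shared WT libraries. AUR1 was higher in erf13-3 by 0.31 on the log2 scale (edgeR, adjusted p = 0.020), and the erf13-3 libraries lay above those of 35S:ERF13:MYC in 3 of 3. CYCB1;4 was higher by 0.31 (adjusted p = 0.045), again with 3 of 3 libraries above. MCM5 was lower in erf13-3, with a log2 difference of -0.37 (adjusted p = 0.027), and all 3 libraries lay below those of 35S:ERF13:MYC. Of all genes, 21.1% were called higher and 17.6% lower in this comparison. The erf13-3 libraries lay above those of 35S:ERF13:MYC without overlap for 30% of all genes, and below for 23%. Each of these calls was lost without at least 3 single libraries, as given with each gene. With 3 libraries a group, no single library was tested as an outlier.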

How the results depend on the processing

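In erf13-3 against WT, 4 members were called higher under every other normalization, filter and tool, 5 without the 3 libraries that stand apart (a choice made after seeing the data), and 3 to 4 with a library left out. In 35S:ERF13:MYC against WT, the count of 3 ran from 0 to 3 with a library left out, and all genes called from 3903 to 6725 around 6209. The count of members was 2 in DESeq2, and 4 without normalization factors and in both limma fits. Between erf13-3 and 35S:ERF13:MYC, the 2 members called higher became 1 with no filter on low counts, 0 in DESeq2 and 1 in either limma fit, and ran from 0 to 3 with a library left out. The 1 called lower became 0 without normalization factors and in both limma fits, and ran from 0 to 1 with a library left out. The cause was not tested.

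Members that turned direction were not called in either setting. In 35S:ERF13:MYC against WT, CYCB1;2 ran from -0.08 to 0.27 (-0.06 without 35S:ERF13:MYC replicate 3) with a library left out, and CDKB1;1 was -0.02 without the 3 libraries. In erf13-3 against WT, MCM5 ran from -0.11 to 0.10 (-0.02 without erf13-3 replicate 1 or 2) with a library left out and was -0.03 without the 3 libraries, and CDKB2;1 ran from -0.02 to 0.14 and was -0.05. Between the lines, CYCD3;1 was 0.01 without normalization factors, 0.02 in both limma fits, 0 with only the 2 groups, 0.06 without the 3 libraries and -0.08 to 0.08 (0.05 without erf13-3 replicate 2) with a library left out. CYCB1;1 ran from -0.03 to 0.25 (-0.01 without erf13-3 replicate 2) and CDKB1;1 from -0.03 to 0.17.

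Without normalization factors the median of all genes moved to 0.13 in 35S:ERF13:MYC and 0.15 in erf13-3 against WT, and the share of called genes that were higher to 60.6%, against 43.7%, and to 71.3%, against 50%. The members' medians moved with it, to 0.29 in 35S:ERF13:MYC and 0.52 in erf13-3. Between the lines that share was 60.8%, against 54.5%. With the replicate number as a block, 5494, 6523 and 8008 genes were called in erf13-3 against WT, 35S:ERF13:MYC against WT and erf13-3 against 35S:ERF13:MYC, against 5381, 6209 and 7626 without the block. The same members were called under the block, and of the other named calls only that of ETG1 in erf13-3 against WT was lost. Same-numbered libraries of 35S:ERF13:MYC correlated at -0.26 to 0.09 with WT and at -0.13 to 0.15 with erf13-3 in their deviations from the group means. What a shared number marks is not stated for any group. With 47 to 529 counts per library, the SE of the members' log2 fold changes ran from 0.09 to 0.21.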
